A study of Danio rerio with 20 samples.

Results

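Expression in *rnaset2* mutant zebrafish was followed from 28 hours post fertilisation (hpf) to 3 days post fertilisation (dpf). The samples were all those labelled *rnaset2* mutant at these stages, 3 arrays at 3 dpf and 4 arrays at 28 hpf, which are 7 of the 20 arrays in the series. The other arrays were from wild type (WT) siblings at the same stages (3 at 3 dpf and 4 at 28 hpf) and from dissected adult brains of fish aged 1 year (3 mutant and 3 WT). The mutant carried the AO127 allele of *rnaset2*, generated with the chemical mutagen ENU, and no treatment was given. Each embryo sample was RNA from a pool of whole dechorionated embryos, hybridised to a one-colour Agilent zebrafish expression array. The younger embryos carry conflicting ages in the labels, 28 hpf in some fields and 28 dpf in another, and 28 hpf, which the extraction protocol names too, was used. Mutant and WT embryos at 28 hpf each have samples numbered 1 and 1.1. Whether 1.1 was a separate pool is not stated. The study calls its arrays biological repeats and describes its experiments in general as repeated on batches of larvae with different birth dates, without saying which arrays came from which clutch, so p-values reflect only how far these samples spread, which may be technical in part.

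*rnaset2* encodes a ribonuclease that works mainly in lysosomes, where it cuts RNA delivered for degradation. Loss of the human enzyme causes a leukoencephalopathy of infancy. The zebrafish embryo at 28 hpf is in the pharyngula period, with the body axis laid out, a beating heart and a brain whose cells still largely divide. By 3 dpf it is at or near hatching, with contractile muscle, differentiating gut, liver and pancreas, functioning sense organs and microglia entering the brain. Expression in a whole embryo therefore changes widely between these ages in any genotype, and the WT siblings measured over the same interval give the background for the mutants. In RNA from a whole embryo, fewer cells of a type and less RNA per cell cannot be told apart.

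The table the authors deposited holds quantile-normalized fluorescence intensities of 43603 probes on a linear scale. Array medians were 257.7 to 257.8, and values ran from 2.14 to 589725. No table at hand matched the probes to genes, so every count is of probes, the targeted gene could not be checked, and the labelled stages and tissue could not be checked against marker genes. An intensity also depends on the probe, so levels are compared for a probe between arrays and not as amounts of transcript between probes. The stage change of a probe is its mean log2 intensity at 3 dpf minus that at 28 hpf. It was estimated with limma over all 20 arrays, and a probe was called at a Benjamini-Hochberg adjusted p under 0.05.

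Most of the probes changed as the mutant embryos developed. Between 28 hpf and 3 dpf, 30742 of the 43603 probes (70.5% of those tested) were called in mutants with limma (n = 4 and 3). Of these, 12418 rose (28.5%) and 18324 fell (42%). On these values falls outnumbered rises, but the median over all probes was itself −0.17 on the log2 scale. When each array was centred so that the median change was near 0, 15080 probes rose and 14987 fell, and with cyclic loess normalization 15670 rose and 14130 fell. The larger number of falls therefore depended on the scaling, and changes here are relative to the quantile-normalized arrays. Mutant arrays of one stage lay entirely above or below those of the other for 32016 probes, 73.4% of all probes, with 12909 (29.6%) higher at 3 dpf and 19107 (43.8%) lower. In WT siblings this held for 66.3% of all probes.

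Among the probes called, the median rise was larger than the median fall. The median stage change was 1.04 (log2) among the probes that rose and −0.79 among those that fell, with a median standard error over all probes of 0.12. These medians may depend on the scaling and were not taken on centred arrays. At least a 2-fold rise occurred in 6389 probes and a fall of that size in 6544, so at this size both directions were alike in number on the log2 scale. At 8-fold or more, 1349 probes rose and 323 fell. At 32-fold or more, 341 rose and 30 fell. A ratio of dim intensities is large for small differences in signal, so the sizes were also taken after adding 50 to every intensity, which shrinks the changes of dim probes. On that scale 4274 probes rose at least 2-fold and 3500 fell, 593 rose at least 8-fold and 86 fell, and 115 rose at least 32-fold and 5 fell. The excess of rises over falls at 8-fold and above was present on both scales, which is a description. WT siblings had it too, with 401 rises and 107 falls of at least 8-fold, and 159 and 39 with 50 added. With 50 added, a dim probe can rise 8-fold but has no room to fall 8-fold, so that scale favours the excess. On the log2 scale the lowest intensity of 2.14 also limits how far a dim probe can fall.

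**Figure D1:**
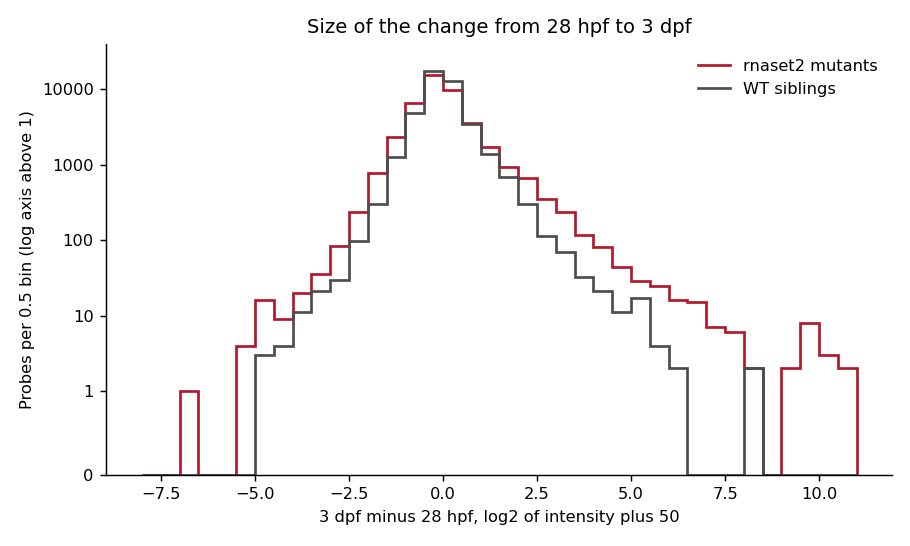
Number of probes (log axis above 1) by the change from 28 hpf to 3 dpf on the log2 scale of intensity plus 50, in bins of 0.5, for *rnaset2* mutants and WT siblings. The mutant distribution is wider on both sides, and both distributions reach further on the side of rises than on the side of falls.

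Large rises came mostly from probes that were dim at the outset. With the probes divided into 8 equal parts by their mean level in 28 hpf WT siblings, which comes from other samples than the mutant arrays although all were normalized together, 121 probes in the second part (up to an intensity of 44.5) and 115 in the third (up to 111) rose at least 8-fold in mutants on the scale of intensity plus 50. In the brightest part, from 5064 upward, 32 probes rose and 57 fell by that factor. No probe in the 4 dimmest parts fell that far, and on this scale a probe that starts at such a level, up to 257, has no room to do so. Without the added 50, rises of at least 8-fold went from 451 in the dimmest part to 32 in the brightest. Falls of that size were then found in every part, with 15 in the dimmest, 54 in the fourth and 57 in the brightest. The share of probes called as rising varied little with the starting level, from 24.7% in the brightest part to 34% in the second. The share called as falling went from 9.67% in the dimmest part to 53.7% in the brightest, a share that moves with the centring of the arrays. No background reading was used here, so which of the dim probes lay above background is not known.

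**Figure D2:**
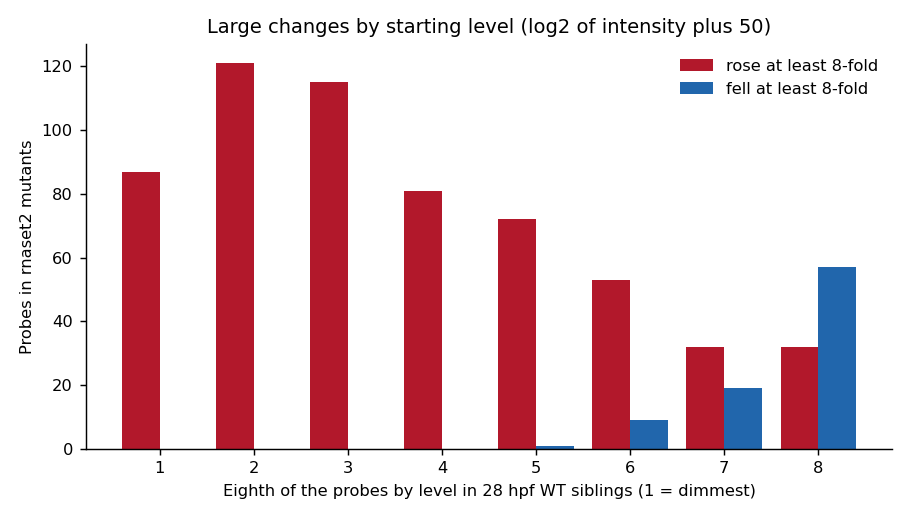
Number of probes that rose or fell at least 8-fold in *rnaset2* mutants, on the log2 scale of intensity plus 50, in 8 equal parts of the probes by mean level in 28 hpf WT siblings (1 is the dimmest). On this scale rises peak at 121 in the second part, and falls of this size are found mainly in the brightest part, with 57. The 4 dimmest parts have no room on it for such a fall.

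The mutant arrays agreed closely within a stage. Pearson correlations of log2 intensity over all probes were 0.994 to 0.996 among the 28 hpf arrays and 0.995 among the 3 dpf arrays, and 0.927 to 0.933 between the stages. In WT siblings the correlations between the stages were 0.960 to 0.965. These coefficients run over probes, and probes are not independent replicates. Of the total sum of squares of log2 intensity, the stage took up 90.1% among the 7 mutant arrays and 79% among the 7 WT arrays. Every mutant 3 dpf array gave the called direction for 99.9% of the probes called. The same arrays made the calls, so this share was all but fixed by the choice of probes. Among the probes called as rising, the median rise was 1.04, 1.04 and 1.03 in replicates 1, 2 and 3. Each replicate was set alone against the 28 hpf mean. On this median, over probes that the same arrays chose, the 3 pools lay at nearly the same distance from the 28 hpf embryos. Their order was not even among the 115 probes that rose at least 32-fold with 50 added. Replicate 2 had the largest change for 69 of them. The smallest was in replicate 3 for 67, in replicate 1 for 45 and in replicate 2 for 3. Samples 1 and 1.1 of the 28 hpf mutants were the closest pair, with an SD of their log2 differences of 0.325 against 0.337 to 0.398 for the other pairs.

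The stage change was larger in mutants than in WT siblings. In WT, 26466 probes (60.7%) were called over the same interval with limma (n = 4 and 3), of which 11681 rose (26.8%) and 14785 fell (33.9%). The standard deviation of the stage change over all probes was 1.32 (log2) in mutants and 0.93 in WT, and 0.946 against 0.661 with 50 added. Taken array by array against the 28 hpf mean of the same genotype, this standard deviation was 1.35, 1.35 and 1.32 in the mutant 3 dpf arrays and 0.965, 0.935 and 0.968 in the WT arrays. All 3 mutant values lay above all 3 WT values. The number of probes that rose at least 8-fold with 50 added was 608, 623 and 568 in the mutant arrays and 168, 157 and 164 in the WT arrays. The number that fell by that factor was 89, 92 and 81 in mutants and 41, 36 and 38 in WT. The spread between arrays of a group was not wider in mutants at 28 hpf, with a median SD per probe of 0.096 (log2) against 0.099 in WT, and was 0.12 against 0.099 at 3 dpf. The 3 arrays of a genotype at 3 dpf share the same 28 hpf mean in these figures, and the age in hours of the 3 dpf pools was not known here.

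The 2 stage changes share no arrays, and most probes moved the same way in both genotypes. Across the 43603 probes the mutant and WT stage changes had a Pearson correlation of 0.73 and a Spearman correlation of 0.69, given as a description of probes measured on arrays that were normalized together. Of the probes that rose in mutants, 8368 (67.4%) also rose in WT, 3235 (26.1%) were not called in WT, and 815 (6.56%) fell in WT. Of those that fell in mutants, 11635 (63.5%) also fell in WT, 5562 (30.4%) were not called, and 1127 (6.15%) rose. Of the 21945 probes called in both genotypes, 91.2% had the same direction.

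**Figure D3:**
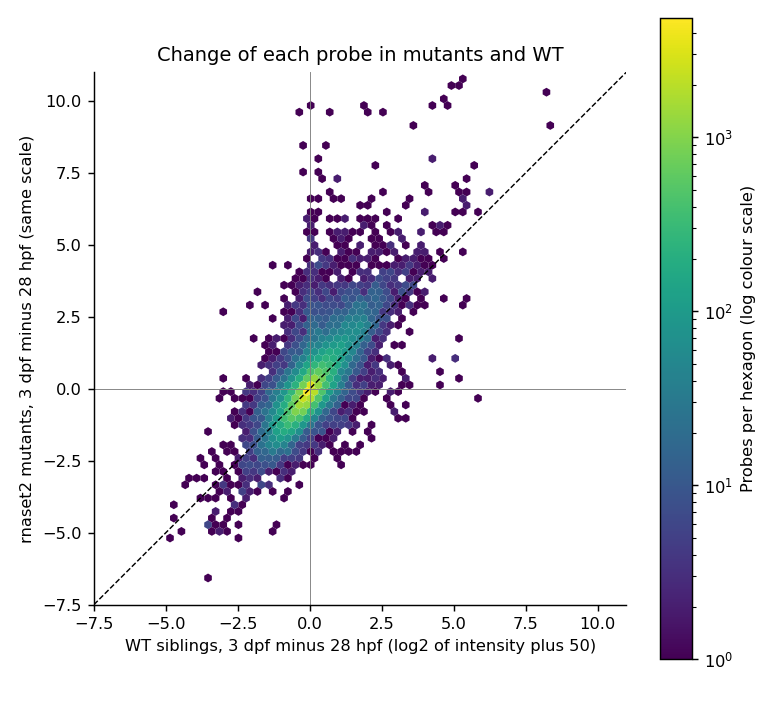
Stage change of each probe in WT siblings (horizontal) and *rnaset2* mutants (vertical), both as 3 dpf minus 28 hpf on the log2 scale of intensity plus 50; colour gives the number of probes per hexagon on a log scale and the dashed line marks equal change. The probes follow the line loosely (Pearson correlation of 0.76 on this scale), the upper arm is steeper than the line, and a column of probes rises in mutants at a WT change near 0.

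The difference between the 2 stage changes was tested directly, as an interaction of genotype and stage in limma over all 20 arrays. It was called for 19475 probes (44.7%), with 8012 (18.4%) more positive in mutants and 11463 (26.3%) more negative. Since the median stage change over all probes was −0.17 in mutants and −0.08 in WT, this split by sign may depend on the scaling. It was not counted on centred arrays. The estimated changes had the same direction and were larger in mutants for 10712 of the probes with a called difference (55%). They had the same direction and were smaller in mutants for 2561 (13.2%), and ran in opposite directions for 6202 (31.8%). Among the 6202 probes with opposite changes the median size of the difference was 0.80 (log2), against 0.70 over all probes with a called difference, and it was at least 8-fold for 286. Both stage changes were called, with opposite signs, for 1942 probes, and 157 of them changed at least 2-fold in both genotypes. Among these 157, 103 rose in mutants and fell in WT, and 54 did the reverse. The median standard error of the difference was 0.16 (log2).

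A group chosen for large changes in one genotype will show smaller ones in the other by the choice alone, so the groups were formed both ways. The 1349 probes that rose at least 8-fold in mutants had a median stage change of 3.88 (log2) in mutants and 2.09 in WT, and 77.5% of them were called as rising in WT. The 401 probes that rose at least 8-fold in WT had a median of 4.33 in mutants and 3.87 in WT, and 95% of them were called as rising in mutants. At this size the probes chosen on the WT arrays had a larger median rise in mutants also. For falls of this size chosen on the WT arrays the order was the reverse. The 323 probes that fell at least 8-fold in mutants had a median change of −3.52 in mutants and −2.19 in WT, but the 107 chosen for that fall in WT had −3.32 in mutants and −3.58 in WT. At 2-fold, the 4576 probes that rose in WT had medians of 1.93 in mutants and 1.60 in WT, and the 3555 that fell in WT had nearly equal medians of −1.38 and −1.34. Over all probes called in WT, whatever their size, the 11681 that rose had medians of 0.746 in mutants and 0.775 in WT, and the 14785 that fell had −0.746 and −0.635. On these values the order of the genotypes in the groups chosen on WT thus varied with the size of the change. The median stage change over all probes was −0.17 in mutants and −0.08 in WT. Small gaps between the group medians, as over all sizes, may therefore depend on the scaling, and the groups were not formed on centred arrays.

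The probes with the largest rises are described as a group, chosen on the mutant arrays. With 50 added, 115 probes were called and rose at least 32-fold, with a median change of 6.05 (log2). Their median intensity in the 28 hpf mutants was 41.7, 39.2, 38.9 and 40.7 in samples 1, 1.1, 2 and 3, and in the 3 dpf mutants 7936, 8334 and 7792. The arrays of the stages did not overlap for any of the 115, which the choice made all but certain. In WT siblings their median was 49.2 to 52.3 at 28 hpf and 616, 588 and 668 at 3 dpf, with a median change of 2.2. In WT, 94 of the 115 rose and 1 fell, where 26.8% and 33.9% of all probes did. The difference between the genotypes was called for 100, where 44.7% of all probes were called, and since the mutant change chose the probes this count is a description. In mutant adult brain, 67 of the 115 had a mean intensity under 50 and 14 had at least 500. Of the 12861 probes not called between the stages, 40.3% had a brain mean under 50.

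The 115 probes differed widely in what they did in WT siblings. Some, 33 in number, changed less than 2-fold in WT, with a median of 42.3, 39.9 and 47.2 in the WT 3 dpf arrays against 5568, 6225 and 5013 in the mutant arrays of that stage. Their medians at 28 hpf were 18.7 to 25.0 in mutants. The choice of these 33 by both stage changes fixed a large difference between the genotypes. A further 37 rose 2- to 8-fold in WT, with 448, 463 and 538 in WT at 3 dpf and 4846, 5671 and 5306 in mutants. The other 45 rose at least 8-fold in WT, with 2964, 2357 and 3104 in WT at 3 dpf and 21614, 17455 and 16172 in mutants. None of the 115 fell 2-fold or more in WT.

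The probes with the largest falls mostly fell in WT siblings as well. A fall of at least 8-fold with 50 added was called for 86 probes, with a median change of −3.59 (log2). Their median intensity was 9132, 9212, 8928 and 9692 in the 28 hpf mutants and 589, 608 and 705 in the 3 dpf mutants. In WT siblings it was 9927 to 10762 at 28 hpf and 1640, 1902 and 1770 at 3 dpf. The genotypes lay close at 28 hpf and apart at 3 dpf, where the choice by the mutant fall favours lower mutant values. The fall was called in WT for 82 of the 86, where 33.9% of all probes fell in WT, with a median change of −2.53. The difference between genotypes was called for 71, where 44.7% of all probes were called, again as a description of probes chosen on the mutant change. By WT change, 6 probes moved less than 2-fold, 52 fell 2- to 8-fold, 28 fell at least 8-fold and none rose 2-fold. In mutant adult brain the median of these probes was 148 to 221, below the 3 dpf values. The probes not called between the stages had a median of 102 there.

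**Figure D4:**
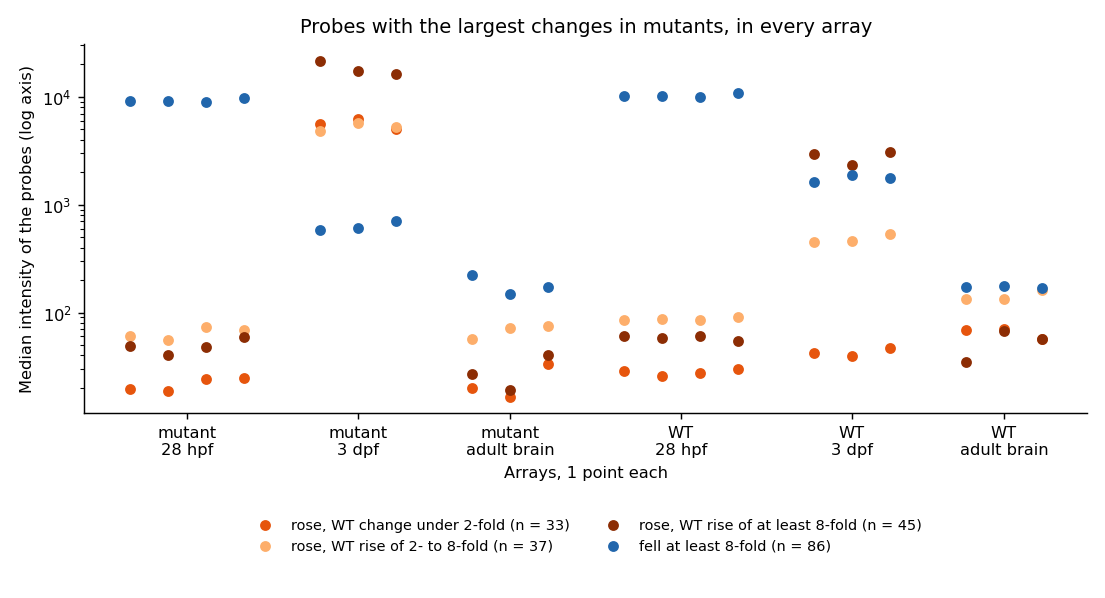
Median intensity (log axis) of the probes with the largest changes in *rnaset2* mutants, 1 point per array, for the 115 probes that rose at least 32-fold, divided by their WT change into groups of 33, 37 and 45, and for the 86 that fell at least 8-fold (changes on the scale of intensity plus 50). In the 33 probes that changed less than 2-fold in WT, the mutant 3 dpf arrays stand at 5013 to 6225 and the WT 3 dpf arrays at 39.9 to 47.2.

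A group of probes went from low to high signal, with limits chosen after the data were seen. In mutants 242 probes had a mean intensity under 50 at 28 hpf and at least 500 at 3 dpf, and 12 went the other way. In WT siblings 45 probes crossed both limits upward and 11 downward, and 33 and 4 probes were common to both genotypes, which is 33 of 242 and of 45 for the upward group and 4 of 12 and of 11 for the downward group. The median of the 242 probes was 22.1 to 22.6 in the 28 hpf mutants and 998, 1039 and 936 in the 3 dpf mutants. In WT at 3 dpf it was 138, 121 and 144, so the group was intermediate there. The WT means at 3 dpf were under 50 for 69 of the 242 and at least 500 for 41. In WT siblings 187 of the 242 rose and 5 fell, where 26.8% and 33.9% of all probes did. The difference between genotypes was called for 206 of these probes, which were chosen on the mutant levels, against 44.7% of all probes. With limits of 30 and 300 the mutant counts were 248 and 22, and with 100 and 1000 they were 196 and 9.

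The adult brain arrays gave a later, single-tissue reading of the probes that moved in mutant embryos. The 6389 probes that rose at least 2-fold in mutants had a median of 70.9 at 28 hpf, 396 at 3 dpf and 409 in mutant adult brain, and 79% were brighter in brain than at 28 hpf, against 62.9% of the 12861 probes not called between the stages. For the 1349 that rose at least 8-fold the medians were 26.5, 620 and 109, and 41.3% had a brain mean under 50, close to the 40.3% of the probes not called. The 6544 probes that fell at least 2-fold had medians of 279, 92.3 and 72.8, and 10.5% were brighter in brain than at 28 hpf. The 323 that fell at least 8-fold had medians of 212, 15.7 and 14.0, and 70.9% had a brain mean under 50. The probes not called had medians of 90.6, 87.7 and 102. Brighter in brain than at 3 dpf were 60.1% of the probes that rose at least 2-fold. The share was 44.4% of those that fell at least 2-fold and 68.6% of those not called. The 28 hpf and 3 dpf arrays also chose these groups. Shares brighter in brain than at either stage therefore lean by the choice and are descriptions. Stage and tissue differ together between the embryos and the brains, and their parts in these values cannot be told apart.

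Named probes were those with the largest rise, the largest fall, the largest excess of rise over WT and the largest excess of fall over WT, ranked on the log2 scale of intensity plus 50 among called probes whose mutant arrays did not overlap. The largest rise was that of A_15_P728776. Its intensity was 13.0, 12.1, 8.84 and 17.6 in mutant samples 1, 1.1, 2 and 3 at 28 hpf and 92718, 109655 and 101780 in the mutants at 3 dpf. In WT siblings it was 13.6, 15.9, 11.4 and 10.1 at 28 hpf and 2312, 2038 and 2765 at 3 dpf. The genotypes overlapped at 28 hpf, and at 3 dpf every mutant array lay far above every WT array. The stage change was 12.98 ± 1.09 in mutants (log2, SE; limma, adjusted p = 1.6e-08) and 7.55 ± 1.09 in WT (limma, adjusted p = 1.6e-05). The changes differed by 5.43 ± 1.54 (limma, adjusted p = 0.0091), and by 5.39 with 50 added. In mutant adult brain the probe was at 7.58, 2.72 and 3.19, near the bottom of the scale. In WT adult brain it was at 11.3, 449.5 and 2132 in the 3 arrays, which lay far apart, and since all groups share one estimate of the spread these brain arrays enter its standard error. From the 14 embryo arrays alone the adjusted p of the difference was 4.4e-08, and over all alternatives run it ranged from there to 0.026 (limma).

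The rise of A_15_P153321 exceeded that in WT by more than that of any other probe meeting the rule. Its intensity was 28.3, 28.5, 24.1 and 27.8 in mutants at 28 hpf and 63230, 65581 and 63456 at 3 dpf. In WT siblings it was 75.9, 84.5, 59.15 and 109.1 at 28 hpf and 42.3, 41.4 and 49.1 at 3 dpf. It was thus bright in the 3 dpf mutants and dim in every other embryo group, and at 28 hpf all mutant arrays lay below all WT arrays. The stage change was 11.21 ± 0.34 (log2, SE; limma, adjusted p = 5e-14) in mutants and −0.86 ± 0.34 (limma, adjusted p = 0.04) in WT, a difference of 12.07 ± 0.49 (limma, adjusted p = 3.7e-11). It was at 10.2, 4.04 and 2.27 in mutant adult brain and at 2.27, 2.24 and 3.596 in WT adult brain.

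The largest fall was that of A_15_P104998, which was bright in all embryos at 28 hpf. Its intensity was 27548, 27496, 28514 and 30909 in mutants and 22972, 24048, 22334 and 23306 in WT at that stage. At 3 dpf it was 196, 178 and 311 in mutants and 1644, 2644 and 1778 in WT. The mutant arrays were above the WT arrays at 28 hpf and below them at 3 dpf, with no overlap at either stage. The stage change was −7.01 ± 0.22 (log2, SE; limma, adjusted p = 5.9e-14) in mutants and −3.55 ± 0.22 (limma, adjusted p = 6.2e-10) in WT, a difference of −3.46 ± 0.31 (limma, adjusted p = 2.8e-07). In mutant adult brain it was at 46.9, 29.95 and 25.2.

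The excess of fall over WT was largest for A_15_P149506, a probe that rose in WT siblings and not in mutants. Its intensity was 108.8, 127, 120.6 and 118.5 in mutants at 28 hpf and 103, 91.0 and 83.3 at 3 dpf. In WT it was 101.3, 99.8, 86.3 and 107.8 at 28 hpf and 9281, 7829 and 8078 at 3 dpf. At 28 hpf the genotypes lay close together, with every mutant array above every WT array. The WT arrays stood far above the mutant arrays at 3 dpf. The stage change was −0.36 ± 0.12 in mutants (log2, SE; limma, adjusted p = 0.015) and 6.41 ± 0.12 in WT (limma, adjusted p = 1.2e-15), a difference of −6.77 ± 0.17 (limma, adjusted p = 2.3e-13). Its small fall in mutants lost its call without replicate 3 at 3 dpf (−0.29, limma, adjusted p = 0.075), with cyclic loess (−0.09, adjusted p = 0.56) and with arrays centred on their median difference (−0.20, adjusted p = 0.17).

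**Figure D5:**
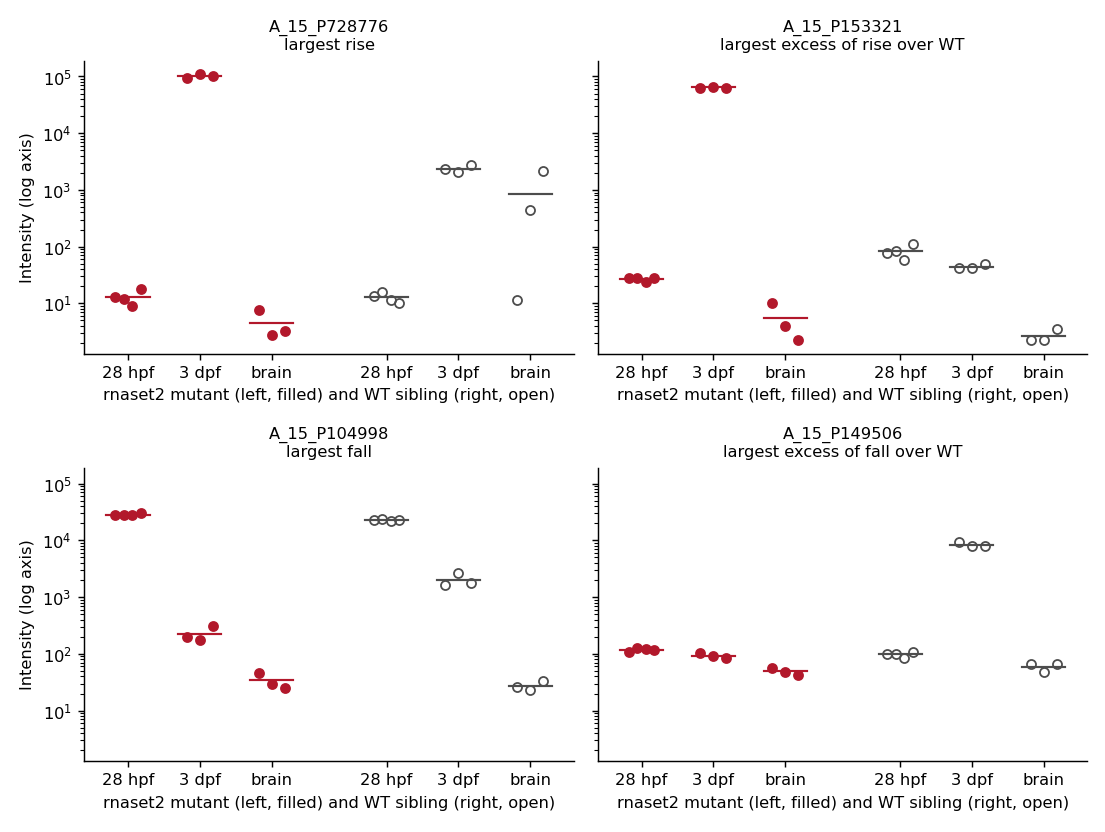
Intensity (log axis) of the 4 named probes in each array at 28 hpf, at 3 dpf and in adult brain, with filled points for *rnaset2* mutants, open points for WT siblings and a line at the group mean. A_15_P153321 stands at 63230 to 65581 in the 3 dpf mutants alone, and A_15_P149506 at 7829 to 9281 in the 3 dpf WT siblings alone.

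The pattern of a named probe over the embryos was shared by a different number of others in each case. With 50 added, the log2 values of 459 probes followed those of A_15_P728776 over the 14 embryo arrays with a Pearson correlation above 0.99, and 126 of them rose at least 8-fold in mutants. For A_15_P153321, whose rise was found in mutants and not in WT, 160 probes did so, 72 with a rise of at least 8-fold. For A_15_P104998 there were 328, of which 299 fell at least 2-fold in mutants, and for A_15_P149506 there were 16. A correlation of this size over 4 groups of arrays reflects mainly the order and spacing of the group means, and the number of probes that reach it is given as a description.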

How the data were processed

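RNA of *rnaset2* mutant and WT sibling zebrafish was measured on 20 one-colour arrays. The authors quantile normalized the scanned values and deposited 1 table of intensities on a linear scale, of which no sample column went unused. Their re-annotation of the probes used danRer11, as the submitters' processing notes also state. For scanner software and background correction the sources used here give nothing. The same holds for slides and scan dates, and an effect of slide was not tested. The deposited intensities were converted to log2 and fitted with limma 3.58.1 (R 4.3.3) as 6 group means over all 20 arrays (14 residual and 1.79 prior degrees of freedom). The contrasts were 3 dpf minus 28 hpf in mutants, the same in WT, and mutant minus WT of these changes. Two-sided p-values were adjusted over 43603 probes by the Benjamini-Hochberg method, with calls under 0.05. Dim probes were kept, and 50 was added before log2 where stated. Precision is limited by the number of arrays.

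Named probes were the 2 with the largest rise and the largest excess of rise over WT, and the 2 with the largest fall and the largest excess of fall, ranked with 50 added among called probes whose mutant arrays did not overlap between stages. Gene lists were written but not run, since probes carried no gene names. The samples, lists, tests and alternatives were chosen with earlier results of these data known.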

Additional observations from a re-analysis of the deposited data

Results flagged for a closer look

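The stage change from 28 hpf to 3 dpf differed between *rnaset2* mutants and WT siblings for 19475 probes by the interaction test in limma. Each of the 4 named probes was among them. The mutant stage change minus the WT stage change (log2) was 5.43 for A_15_P728776, 12.07 for A_15_P153321, −3.46 for A_15_P104998 and −6.77 for A_15_P149506. The probes were chosen for large changes in mutants or large differences from WT, so these sizes are descriptions of extremes.

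In the 28 hpf mutants, 1 array stood apart for A_15_P153321, at an intensity of 24.1 against 27.8 to 28.5 in the others. It was set apart by Dixon's test for an outlying value, which chance alone passes in about 1 in 20 groups, and the gap is far smaller than the change of this probe by 3 dpf. The test was run on each named probe in the 28 hpf mutants and in the 28 hpf WT siblings. With that many groups, 1 value passing by chance would not be unusual.

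A_15_P728776, near the bottom of the scale in all mutant brains, reached 2132 in 1 array of WT adult brain, against 449.5 and 11.3 in the other two. Of the 115 probes that rose at least 32-fold in mutant embryos, 0, 5 and 9 exceeded the highest mutant brain array by more than 8-fold in WT brain replicates 1, 2 and 3, against 0.284%, 0.326% and 0.339% of all probes. A_15_P728776, whose brain values prompted the count, is itself one of the 5 and one of the 9. Of the 115 probes, 67 had a mean under 50 in mutant adult brain, and the share over all probes was not matched for level.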

How the results depend on the processing

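For the mutant stage change, no probe called under both settings changed direction in any alternative fit run, except 1 with cyclic loess. Directions of the difference from WT were not compared in this way. The fall of A_15_P149506 in mutants lost its call under the 3 alternatives named with it. The count called in mutants was 29201 to 29970 with any 1 of the 7 mutant embryo arrays left out, and the difference from WT 17623 to 18935 with any 1 of the 14 embryo arrays left out. The sizes depended on the scale. With 50 added, 3500 probes fell at least 2-fold, 1605 rose and 403 fell at least 4-fold, 593 and 86 at least 8-fold, and 115 and 5 at least 32-fold. Without the 25% dimmest probes, 735 fell at least 4-fold, 849 rose and 168 fell at least 8-fold, and 191 and 16 at least 32-fold. At an adjusted p under 0.01, 1586 probes changed in the same direction and less in mutants. With a fold change of at least 1.5 also required, 12008 differed from WT, of which 6394 changed more and 1286 less in mutants in the same direction. The count of probes switched off was 22 with limits of 30 and 300, limits chosen after seeing the data, as were the median centring and the leaving out of arrays for the sizes and the switch counts. With samples 1 and 1.1 averaged, 12001 rose and 17686 fell, and in a fit of the 7 mutant arrays alone 12859 and 19033. A replicate block left 30570 probes called in mutants and 19170 differing from WT. Whether same-numbered samples share more than a number is not stated. The correlations of same-numbered mutant samples' deviations were −0.027, 0.034 and 0.062, and 2 of 3 correlated best with their own number. So few samples cannot settle the question. Alternatives for gene lists were not run, because no table paired probes with genes.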
